A study of Mus musculus with 18 samples.

Results

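The miR-26 family was measured in mouse liver through 2 of the 576 microRNA (miRNA) names on the array, mmu-miR-26a and mmu-miR-26b. The members were chosen by name: every array spot that was not a control and carried either name was taken. The family had 4 of the 1712 probes, with 10 replicate spots per probe and array, or 40 of 11540 spots. Both names were among the 69 names tested, and all 4 probes were among the 112 probes tested.

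Livers came from 18 male Muta™Mouse (transgenic mouse strain 40.6, which carries a bacterial lacZ gene for scoring mutations), aged 25 weeks. Dosing was by gavage on 28 days, with benzo(a)pyrene (BaP), a carcinogenic polycyclic aromatic hydrocarbon, dissolved in olive oil, and liver was taken 3 days after dosing ended. There were 3 controls given olive oil alone and 5 animals at each of the BaP doses (25, 50 or 75 mg/kg/day), with 1 single-colour array per animal. All groups shared strain, sex, age and vehicle, and the replicate numbers used here only name arrays.

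MicroRNAs are short RNAs that guide silencing complexes to messenger RNAs, mainly by pairing through the seed, the bases near their 5′ end. The miR-26 genes lie within genes of the Ctdsp family, which encode phosphatases that act on RNA polymerase II, and host and miRNA are often expressed together. In liver, miR-26 is known as a restraint on cell growth: it is abundant in normal hepatocytes, targets cell cycle genes such as cyclins and their kinases, and is often reduced in liver tumours.

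The mature 5p arms, the forms that the array names refer to, were read from RefSeq (GRCm38.p6), where both members were found. They are shown because the family is defined by the seed, bases 2 to 8, in capitals.
mmu-miR-26a-5p: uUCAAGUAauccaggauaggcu
mmu-miR-26b-5p: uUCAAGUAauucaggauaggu
Over the 21 positions compared from the 5′ end, 19 were the same. The differences, counted from 1 at the 5′ end of miR-26a-5p, were C11U and C21U, and miR-26a-5p was 1 base longer (22 against 21 bases). Of the 1679 mature names in the RefSeq table, 2 held this seed, and they are the 2 members. Because of this likeness, how far the probes of one member also bind the other is relevant to every result. It was not tested, and the probe sequences were not used here.

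The 2 members come from 3 hairpins, shown with the mature 5p arm in capitals because miR-26a has 2 genes that give the same mature sequence, so its signal is a sum over both.
Mir26a-1: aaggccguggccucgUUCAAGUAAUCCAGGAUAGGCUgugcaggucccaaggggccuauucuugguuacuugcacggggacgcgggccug
Mir26a-2: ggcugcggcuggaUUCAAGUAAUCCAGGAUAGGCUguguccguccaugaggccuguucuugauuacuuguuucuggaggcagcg
Mir26b: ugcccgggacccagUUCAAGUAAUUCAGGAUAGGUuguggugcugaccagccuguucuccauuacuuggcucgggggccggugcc
In GRCm38.p6 Mir26a-1 lies at chr9:119031796-119031885, inside the span of Ctdspl (chr9:118926536-119044119). Mir26a-2 lies at chr10:126995530-126995613, inside the span of Ctdsp2 (chr10:126978717-126999975). Mir26b lies at chr1:74394310-74394394, inside the span of Ctdsp1 (chr1:74391609-74397285). All 3 hairpins are on the plus strand, and only gene spans were available, so exons and introns were not assigned.

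The arrays lay on 3 slides. On slide 1 there were 7 (1 control and 2 from every dose). Slide 2 had 4, 2 from the 50 and 2 from the 75 mg/kg/day group, and lacked a control. The 7 on slide 3 were 2 controls, 3 from the 25 mg/kg/day group and 1 from each higher dose. Per array, 5.72% to 16.5% of spots passed the scanner's background flag and no spot was saturated. The arrays were few and most spots were dim, and what limited the precision of the miR-26 values was not tested. Slide was a block in every main fit. In bulk liver, fewer cells of a type and less RNA per cell cannot be told apart.

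The family was detected, miR-26b well and miR-26a weakly. A probe was called present on an array when the flag was met by at least 0.5 of the spots it had there. Levels are given on the log2 scale above the 1021 probes with no spot past the flag on any array. Both miR-26b probes (A_54_P2483 and A_54_P2484) were present on 18 of 18 arrays, with medians of 1.36 and 2.08 above those dark probes. The miR-26a probe A_54_P4384 was present on 17 of 18 arrays, with a median of 1.05 above them. The other miR-26a probe, A_54_P2481, was present on 14 of 18 arrays and sat only 0.60 above them. The 4 arrays without it were BaP 25 replicates 4 and 5, BaP 50 replicate 1 and BaP 75 replicate 4, and BaP 25 replicate 4 was also the array without A_54_P4384. Background was not subtracted from these signals. With the scanner's background-subtracted signals the slope per 25 mg/kg/day was -0.078 (processed) and -0.034 (total gene signal) for miR-26b, and -0.049 and -0.020 for miR-26a, smaller than the slopes given below. The median slope of all names also moved, and relative to it the slopes were -0.11 and -0.10 for miR-26b, against -0.094 without the subtraction, and -0.083 and -0.090 for miR-26a, against -0.053.

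The opposite arm of the Mir26b hairpin, named mmu-miR-26b* on the array, had 4 probes, and each was present on 0 of 18 arrays. Their medians lay between 0.07 and 0.11 on the log2 scale above the dark probes, a set that includes the miR-26b* probes with no spot past the flag. At most 20% of the spots of any miR-26b* probe were well above background on any array. Star arms are usually degraded after the hairpin is cut. The name was not well above background and was not tested.

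miR-26b was lower on average at each BaP dose than in controls, most at 75 mg/kg/day, and was 1 of the few miRNAs whose slope over dose passed the test. The normalised log2 signal of mmu-miR-26b was 8.30, 7.39 and 7.40 in the controls, and 7.66, 7.92, 7.51, 7.48 and 7.44 at 25 mg/kg/day. At 50 mg/kg/day it was 7.66, 7.77, 7.25, 7.22 and 7.31, and at 75 mg/kg/day 7.57, 7.66, 7.29, 7.25 and 7.31. Control replicate 1 was the highest of the 18 arrays, whereas the other 2 controls lay just below the range at 25 mg/kg/day and inside the ranges at 50 and 75 mg/kg/day, so the groups overlapped.

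**Figure D1:**
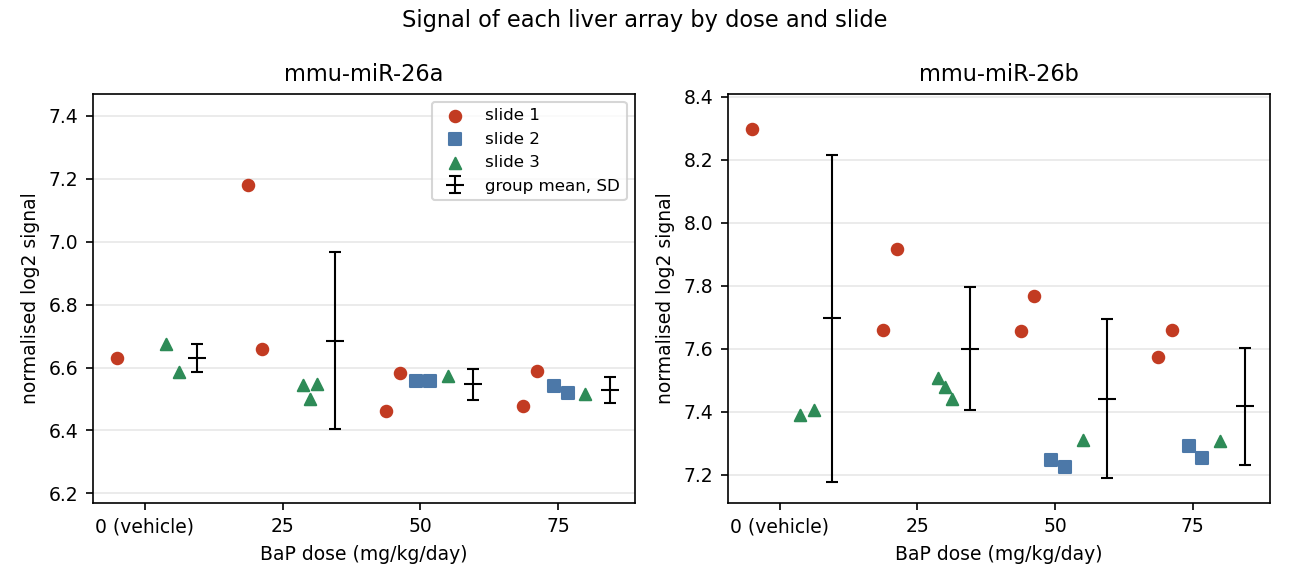
Normalised log2 signal (y axis) of miR-26a and miR-26b in each array by BaP dose in mg/kg/day (x axis), with the slide shown by colour and shape and the group mean and SD as bars. The y axes differ in position and have the same span. For miR-26b the slide 1 arrays lie above those of slides 2 and 3 at every dose, with control replicate 1 at 8.30, and for miR-26a 1 array at 25 mg/kg/day lies apart at 7.18.

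Against control, miR-26b changed by -0.13 ± 0.09 on the log2 scale at 25 mg/kg/day (SE; limma, adjusted P = 0.550). The change was -0.29 ± 0.10 at 50 mg/kg/day (adjusted P = 0.111 by limma). At 75 mg/kg/day it was -0.31 ± 0.10 (adjusted P = 0.0669 by limma), or 1.24-fold lower, with a 95% interval from -0.53 to -0.10. None of these passed the threshold of an adjusted P of 0.05, although the unadjusted limma P was 0.0113 at 50 and 0.00699 at 75 mg/kg/day. Over all 69 names the percentage past the threshold was 0 at 25 mg/kg/day (0 names by limma, with 7 at an unadjusted P under 0.05), 2.9% at 50 and 5.8% at 75 mg/kg/day, and neither miR-26 name was among them. The difference of 75 from 25 mg/kg/day was -0.19 ± 0.09 (adjusted P = 0.321 by limma), where 2.9% of the names passed.

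The slope of miR-26b over dose was -0.10 ± 0.03 per 25 mg/kg/day (SE; limma, adjusted P = 0.0466), past the threshold. It was 1 of 7 names past it, 10.1% of those tested, of which 5 fell and 2 rose. That split depended on the scaling: 13 rose and 0 fell with total gene signal, 2 rose and 0 fell with processed signal, and 1 rose and 0 fell with arrays centred on their medians, where the median slopes of all names were 0.070, 0.033 and -0.067. It ranked 6th of 69 by P, and the median slope of all names was -0.01. With miR-130a, it was at the edge of the threshold (both at an adjusted P of 0.0466 by limma). An exact two-sided permutation of the dose labels within slides gave P = 0.00558 over 1587600 arrangements, or 0.0558 after adjustment over the 10 such tests of the 2 members. For the single doses these exact tests could not pass the threshold at 50 or 75 mg/kg/day, where 9 arrangements allow no P under 0.111, and miR-26b reached 0.111 at both.

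The slope of miR-26b depended most on 1 array. When each array was left out in turn, it was smallest without control replicate 1 (-0.049, adjusted P = 0.234 by limma). Without that array the change from control was 0.070 for 25, -0.063 for 50 and -0.087 for 75 mg/kg/day. The call was also lost in 9 other fits, those without BaP 25 replicate 2, 3, 4 or 5, BaP 50 replicate 1, 2 or 5, or BaP 75 replicate 1 or 2, but there the slope stayed between -0.095 and -0.105. The slope was below 0 in all 18 fits. Over the 15 dosed arrays alone it was -0.074 (adjusted P = 0.171 by limma), a comparison chosen after the data were seen.

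**Figure D2:**
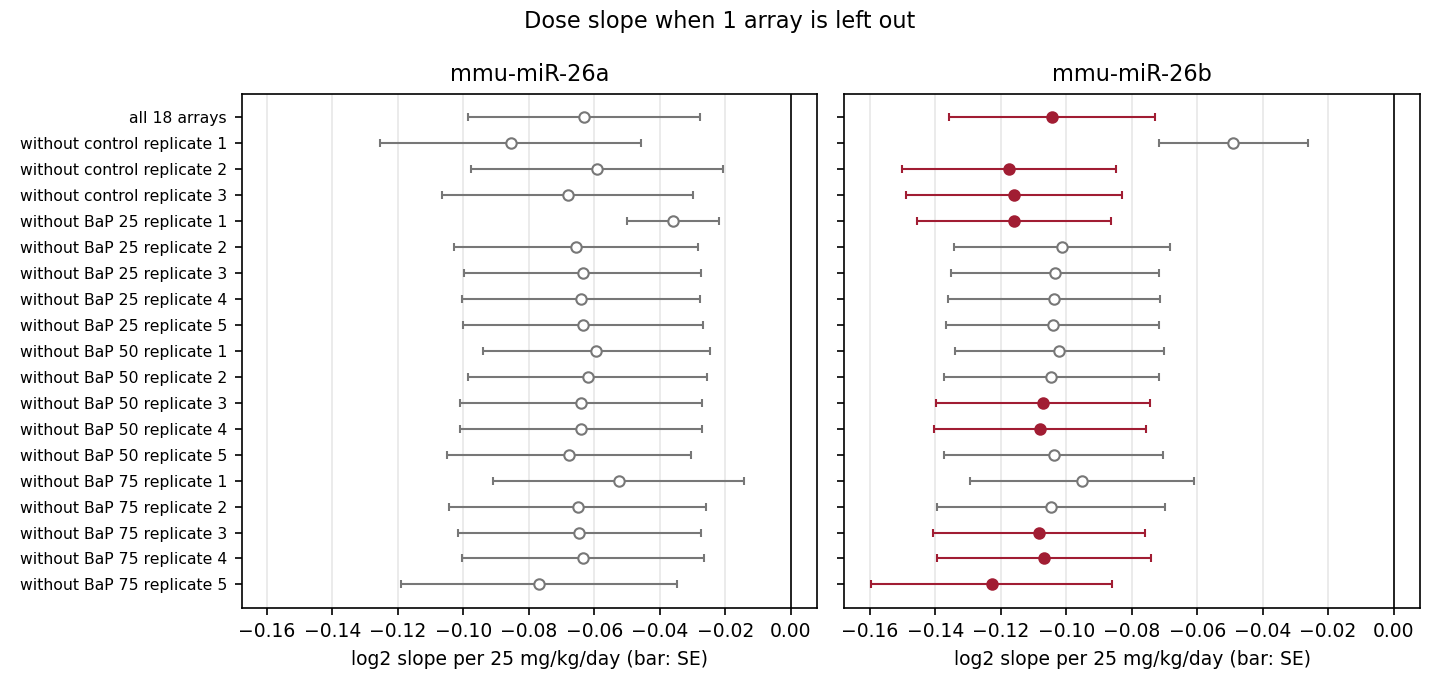
Slope of miR-26a and miR-26b over dose, in log2 per 25 mg/kg/day (x axis), with all 18 arrays and with each array left out in turn (y axis). Bars are SE, and filled points have an adjusted P under 0.05 (8 of the 18 fits for miR-26b, 0 for miR-26a). The largest shift for miR-26b came from control replicate 1 and that for miR-26a from BaP 25 replicate 1.

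With slide entered first, more of the variance of miR-26b was assigned to slide than to dose. The doses were not balanced over slides, so variance that the 2 share was assigned to slide. Slide explained 68.3% over the 18 arrays, dose after slide a further 14.3%, and the remainder was 17.4%. Slide 1 held the 7 arrays between 7.57 and 8.30, slide 3 those between 7.31 and 7.51, and slide 2 those between 7.22 and 7.29, so the slides did not overlap. The changes differed in size between slides. On slide 1, where control replicate 1 was the only control, the log2 difference of miR-26b from control was -0.51 (25 mg/kg/day), -0.58 (50) and -0.68 (75).
On slide 3, with 2 controls, it was 0.079, -0.088 and -0.089 in the same order. On slide 3 the 3 arrays at 25 mg/kg/day were above both controls, and the single arrays at 50 and 75 mg/kg/day were below both. At 50 and 75 mg/kg/day, 3 of the 3 arrays that share a slide with a control were below every control of that slide. Both probes gave these counts, and 66.7% and 60.9% of all names had a change below 0 at these doses. With scaled total gene signal the slide 3 arrays read 137 at 50 and 149 at 75 mg/kg/day, against 133 and 145 in the controls. The share of all names so placed was not counted. The 75 minus 25 mg/kg/day difference uses no control and was -0.17 on slide 1 and -0.17 on slide 3 (exact permutation within slides, P = 0.0833 with 24 arrangements, which allow no P under 0.0417). With control replicate 1 and BaP 25 replicate 1 both left out, an alternative chosen after the data were seen, this difference was -0.21 and passed the threshold (adjusted P = 0.00628 by limma), whereas the slope did not (-0.060, adjusted P = 0.127 by limma).

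The high signal of miR-26b in control replicate 1 was carried by both probes and all of their spots. Probe A_54_P2484 read 8.65 there, with its 10 spots between 8.53 and 8.77, and between 7.85 and 8.25 on the other 6 arrays of slide 1. Probe A_54_P2483 read 7.95, with its 10 spots between 7.80 and 8.03, and between 7.29 and 7.58 on the other 6. No spot of either probe on that array was as low as the highest probe value of the other slide 1 arrays. Set against the mean of the other 6 arrays of slide 1, miR-26b stood 0.59 higher on this array, the highest of the 69 names and second in size to miR-34a (-1.29), the miRNA that rose most with dose. The median size of the deviation over all names on the array was 0.11. On the same array miR-26a deviated by -0.03. The cause was not tested.

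**Figure D3:**
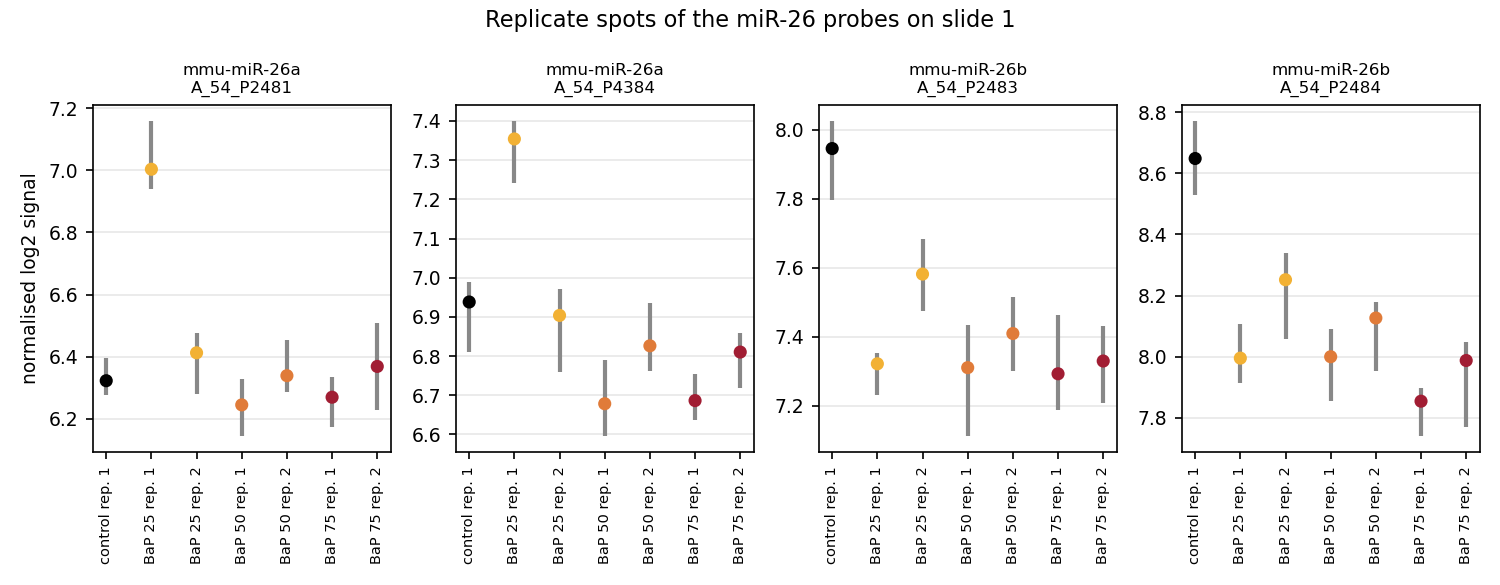
Normalised log2 signal (y axis) of the 4 miR-26 probes on the 7 arrays of slide 1 (x axis), with the point at the median over spots, the bar from the lowest to the highest spot and the colour by dose group. Each panel has its own y axis. The spots of both miR-26b probes in control replicate 1, and of both miR-26a probes in BaP 25 replicate 1, lie above the probe values of the other arrays.

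miR-26a did not pass the threshold at any dose or over dose. The normalised log2 signal of mmu-miR-26a was 6.63, 6.68 and 6.58 in the controls, and 7.18, 6.66, 6.54, 6.50 and 6.55 at 25 mg/kg/day. At 50 mg/kg/day it was 6.46, 6.58, 6.56, 6.56 and 6.57, and at 75 mg/kg/day 6.48, 6.59, 6.54, 6.52 and 6.52. Apart from BaP 25 replicate 1 at 7.18, all arrays lay between 6.46 and 6.68. All 5 arrays at 50 mg/kg/day and 4 of 5 at 75 mg/kg/day were below every control. At these doses 66.7% and 60.9% of all names had a change below 0, and how many other names were so placed was not counted. The count also crosses slides, because slide 2 held 2 arrays at each of these doses and no control. Nothing is read from it. By probe the counts were 5 and 5 of 5 with A_54_P4384, but 1 and 2 of 5 with A_54_P2481. With scaled total gene signal the groups overlapped: 43.3 to 57.8 in controls, 38.2 to 64.7 at 50 and 43.0 to 69.5 at 75 mg/kg/day.

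The change of miR-26a from control was 0.05 ± 0.10 on the log2 scale at 25 mg/kg/day (SE; limma, adjusted P = 0.829). Its sign was not stable: it was below 0 under 5 of the other normalisations or signals. The change was -0.13 ± 0.11 at 50 mg/kg/day (adjusted P = 0.497 by limma) and -0.15 ± 0.11 at 75 (adjusted P = 0.420 by limma), with a 95% interval at 75 from -0.39 to 0.08. The difference of 75 from 25 mg/kg/day was -0.20 ± 0.10 (adjusted P = 0.346 by limma), and the slope was -0.063 ± 0.035 per 25 mg/kg/day (adjusted P = 0.266 by limma). These intervals do not exclude a fall of the size estimated for miR-26b. Without BaP 25 replicate 1 the change at 25 mg/kg/day was -0.066 and the slope -0.036, both short of the threshold (adjusted P = 0.351 and 0.0919 by limma).

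Slide, again entered first, explained 10.2% of the variance of miR-26a, dose after slide 23.5%, and the remainder was 66.3%. On slide 1 the differences of miR-26a from control were 0.29 at 25 mg/kg/day, -0.11 at 50 and -0.10 at 75. On slide 3 they were -0.10, -0.06 and -0.11 in the same order. The sign at 25 mg/kg/day thus differed between slides, and BaP 25 replicate 1 lay on slide 1. At 50 and 75 mg/kg/day, 3 of the 3 arrays that share a slide with a control were below every control of that slide. By probe this held for A_54_P4384, but with A_54_P2481 1 of 3 was below and 1 of 3 above at each dose. With scaled total gene signal the slide 1 arrays at 75 mg/kg/day read 61.8 and 69.5, above their control at 57.8. The share of all names so placed was not counted.

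BaP 25 replicate 1 stood apart for miR-26a as control replicate 1 did for miR-26b. Its probe A_54_P2481 read 7.00, with 9 spots between 6.94 and 7.16, against 6.24 to 6.41 on the other 6 arrays of slide 1. Probe A_54_P4384 read 7.35, with 10 spots between 7.24 and 7.40, against 6.68 to 6.94. The spots of both probes lay above those ranges. Against the mean of the other 6 arrays, miR-26a was 0.61 higher there, again the highest of the 69 names and second in size to miR-34a (-0.87), and miR-26b on that array deviated by -0.15. This array also had the most names detected by the scanner's software (144, against 57 to 119 on the others) and the largest share of spots well above background. Its part in the result was not tested.

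**Figure D4:**
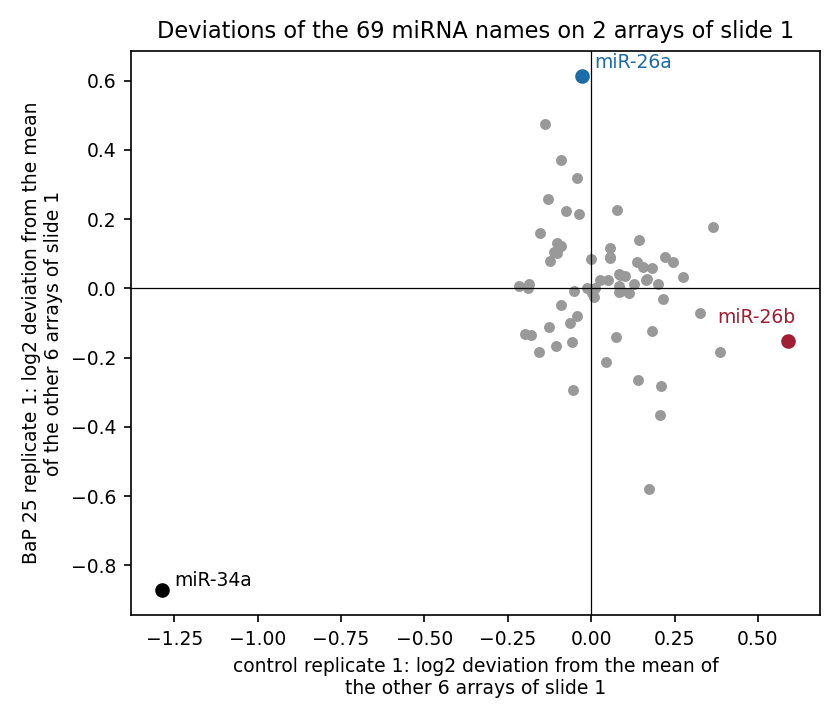
Deviation of each of the 69 tested miRNA names from the mean of the other 6 arrays of slide 1, in log2 units, in control replicate 1 (x axis) and in BaP 25 replicate 1 (y axis). miR-26b has the largest positive deviation on the first array (0.59) and miR-26a on the second (0.61), and each is near 0 or below on the other array. miR-34a is lower than that mean on both.

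By probe, the slope over dose was below 0 for all 4, as it was for 64.3% of the 112 probes tested (median -0.013). For miR-26b it was -0.11 ± 0.03 per 25 mg/kg/day with A_54_P2484 (SE; limma over 112 probes, adjusted P = 0.0454) and -0.10 ± 0.03 with A_54_P2483 (adjusted P = 0.0558 by limma). For miR-26a it was -0.082 ± 0.032 with A_54_P4384 (adjusted P = 0.0987 by limma) and -0.044 ± 0.040 with the dimmer A_54_P2481 (adjusted P = 0.506 by limma). A_54_P2484 was the only miR-26 probe among the 11 past the threshold in the slope, 9.82% of those tested. Without control replicate 1 its slope was -0.055 (adjusted P = 0.322 by limma), and the call held in 6 of 18 fits with an array removed. The 2 probes of each member gave the same direction at 50 and 75 mg/kg/day. At 75 mg/kg/day the changes were -0.33 and -0.30 for miR-26b and -0.22 and -0.09 for miR-26a, with A_54_P2484 and A_54_P4384 named first.

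**Figure D5:**
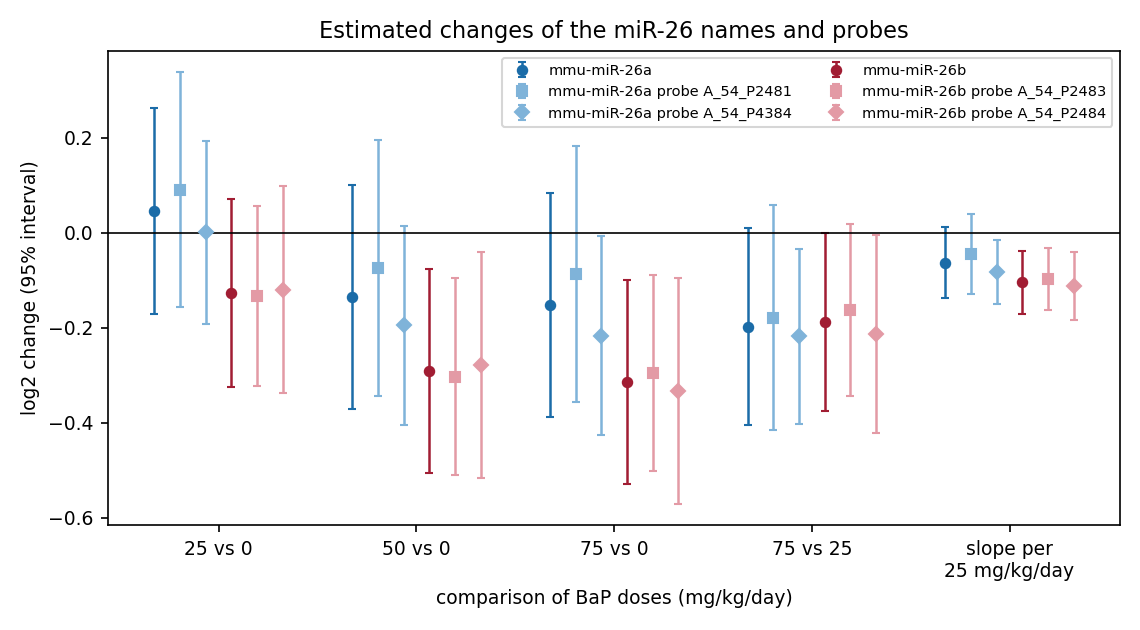
Estimated log2 changes (y axis) of the miR-26 names and their probes for each comparison of doses and for the slope per 25 mg/kg/day (x axis), with 95% intervals from limma with slide as a block. The intervals of miR-26b and its probes lie below 0 at 50 and 75 mg/kg/day and for the slope, and those of miR-26a by name include 0 in every comparison.

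Whether the members responded differently was tested on the log2 difference of miR-26b minus miR-26a within each array, whose level depends on the probes and whose changes alone are read. It was 1.67, 0.71 and 0.82 in the controls, and 0.48, 1.26, 0.96, 0.98 and 0.89 at 25 mg/kg/day. At 50 mg/kg/day it was 1.19, 1.19, 0.69, 0.67 and 0.74, and at 75 mg/kg/day 1.10, 1.07, 0.75, 0.74 and 0.79. The 4 groups overlapped, and the highest and lowest of all arrays were control replicate 1 and BaP 25 replicate 1. The slope of the difference was -0.041 per 25 mg/kg/day (exact two-sided permutation within slides, P = 0.599, 0.875 after adjustment over 5 tests). Against control it was -0.17 at 25 mg/kg/day (exact permutation P = 0.700), -0.25 at 50 (0.222) and -0.28 at 75 (0.222). At 50 and 75 mg/kg/day the tests could not pass, because 9 arrangements allow no P under 0.111. By the slope, a difference in response between miR-26a and miR-26b was not shown, and without control replicate 1 the slope was 0.037, of the opposite sign. Background was not subtracted and the miR-26a probes lay nearer the dark probes. How far this shaped the difference was not tested. With both background-subtracted signals the difference at 25 mg/kg/day was above 0.

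Across the 18 arrays no relation between the 2 members was shown. With slide means removed, Pearson's r between them over the 18 arrays was -0.03 (permutation within slides, P = 0.934) and Spearman's rho was 0.19 (permutation P = 0.493). After leaving out the 2 arrays farthest from the median of miR-26a, r was 0.25. Within slide 1 r was -0.02 (exact permutation, P = 0.963, n = 7) and rho 0.54 (P = 0.236), and within slide 3 r was -0.20 (exact permutation, P = 0.691, n = 7) and rho -0.29 (P = 0.556). Adjusted over these 3 relations, the P-values were 0.963 for r and 0.556 for rho in each. Without control replicate 1 and BaP 25 replicate 1, chosen after the data were seen, r was 0.42. These arrays had the highest and lowest difference between the members, so leaving them out favours a higher r. This r was not tested, and no relation is read from it.

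The 3 names most like miR-26a over the 18 arrays, by Pearson's r after slide means were removed, were miR-16 (0.89), miR-194 (0.86) and miR-103 (0.81). Without the same 2 arrays these were 0.68, -0.06 and 0.60. The names most like miR-26b were let-7g (0.84), miR-148a (0.82) and let-7c (0.80), which became 0.50, 0.62 and 0.77. These are descriptions over arrays that share slides and normalisation. The likeness of miR-194, a miRNA abundant in hepatocytes, to miR-26a thus rested on these arrays, whereas that of let-7c, a let-7 family member that also restrains growth, to miR-26b did not.

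Among 22 other miRNAs known to restrain growth in liver, 20 were tested. In the slope over dose 1 rose and 2 fell, beside the 10.1% of all names past the threshold, with a median of -0.026 per 25 mg/kg/day against -0.010 over all 69 names. At 75 mg/kg/day the same counts held, beside 5.8% of all names, and the median change was -0.087 against -0.030. miR-34a, a target of p53, rose by 2.07 ± 0.18 on the log2 scale at 75 mg/kg/day (SE; limma, adjusted P = 5.4e-07). let-7c fell by 0.27 ± 0.05 (adjusted P = 0.00533 by limma), and miR-199a-3p, which is best known from mesenchymal cells, fell by 0.22 ± 0.05 (adjusted P = 0.00931 by limma). The slopes of let-7c and miR-199a-3p were -0.092 and -0.070 per 25 mg/kg/day, beside -0.10 for miR-26b. The members miR-145 and miR-214 were not tested because their probes were present on 0 arrays. Of 19 miRNAs known to promote growth in liver, 7 were tested and 0 passed the threshold in the slope or at 75 mg/kg/day by limma, with medians of -0.0022 and -0.011. With 10.1% and 5.8% of all names past it, a count of 0 among 7 says nothing about this list. No name was called lower with total gene signal, processed signal or array medians, in the slope or at 75 mg/kg/day, so the falls of let-7c and miR-199a-3p did not pass there.

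Markers of cell types were read beside these results. The hepatocyte names miR-122, miR-192 and miR-194 were present on 18 of 18 arrays, and 0 of 3 passed the threshold in any comparison. Of 7 blood cell names 3 were tested, and of 2 endothelial names 1, again with 0 past the threshold. Of 6 mesenchymal names only miR-199a-3p was tested, and miR-143, miR-145, miR-214 and miR-127 were present on 0 arrays. The summed linear signal of the tested mesenchymal marker was 94.8 to 101 in controls, 88.1 to 95.5 at 25 mg/kg/day, 78.4 to 94.7 at 50 and 77.5 to 90.7 at 75. From control to 75 mg/kg/day the median sum went from 12037 to 12655 for hepatocyte names, 644 to 602 for blood cell names and 162 to 167 for the endothelial name. The mesenchymal signal fell along with the miR-26b average, and its part in that result was not tested. Across arrays with slide means removed, r between miR-199a-3p and miR-26b was 0.50, and 0.21 without control replicate 1 and BaP 25 replicate 1.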

How the data were processed

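Total RNA with its small fraction was labelled with cyanine 3 and hybridised to 1-colour Agilent mouse miRNA arrays. As deposited, the scanner output gives linear-scale intensities per spot from Agilent Feature Extraction 10.7.3.1 (submitters' processing notes), not normalised between arrays. A second deposited file, the authors' summary with 1 value per name and array, was read as log2 signal with unknown centring and used as an alternative only.

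Following the study's methods, median signals without background subtraction were log2-transformed, normalised by cyclic loess over spots and summarised by the median over spots, with slide as a block. The choices made here were the removal of flagged outlier spots (1.91% to 3.84% per array), the mean over kept probes of a name, and limma 3.58.1 (R 4.3.3) in place of MAANOVA. A probe was kept when 1 group had it present on at least 0.8 of its arrays. A kept probe entered the mean on every array, also where it was not present. Tests were two-sided, with Benjamini-Hochberg adjustment over the 69 names or 112 probes and a threshold of 0.05. Exact permutations used Python 3.11.15, and the relation of the members used 100000 shuffles within slides. The exact permutation was tested on simulated data. Nothing in the labels gives replicate numbers, and each array is described as 1 animal. Further controls named in the labels' protocol are not analysed here.

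The named miRNAs were the members and their star forms, the 3 names most like each member, and list members past the threshold in the slope or at 75 mg/kg/day. Members and lists were chosen with earlier results of these data known. Alternatives covered normalisation, background, filter, probe summary, slide and each array left out.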

Additional observations from a re-analysis of the deposited data

Results flagged for a closer look

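Values of the 2 names, their 4 probes and the miR-26b minus miR-26a difference were checked in the 3 dose groups of 5 arrays, 21 groups in all, for an array whose gap to its nearest neighbour exceeded 0.71 of the range of the group. Chance marks about 1 in 20 groups, and the name and its probes are not independent. Such an array was found in 5 groups, all of miR-26a or its probes. At 25 mg/kg/day it was BaP 25 replicate 1, with a gap of 0.766 of the range for miR-26a (7.18 against a next value of 6.66), 0.773 for probe A_54_P2481 and 0.757 for probe A_54_P4384. At 50 mg/kg/day it was BaP 50 replicate 1, the lowest array, with a gap of 0.783 for miR-26a (6.46 against a next value of 6.56) and 0.737 for probe A_54_P2481, which was not present on that array. The miR-26b groups at the 3 doses held none, and the 3 controls are too few for this check.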

How the results depend on the processing

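The miR-26b slope stayed below 0 under every alternative but passed the threshold in only 4 of 15. It was short of it with quantile normalisation (-0.079), array medians centred (-0.18), processed signal (-0.078), normexp (-0.098), total gene signal (-0.034), the authors' table (-0.11), no filter (-0.10), no slide block (-0.099), slides with a control (-0.11), and, chosen after the data were seen, without control replicate 1 and BaP 25 replicate 1 (-0.060) and with dosed arrays alone (-0.074). The miR-26b change at 25 mg/kg/day passed in the authors' table (-0.39) and turned to 0.092 without the 2 arrays, where 75 against 25 mg/kg/day passed (-0.21). The miR-26a change at 25 mg/kg/day turned negative with quantile normalisation (-0.11), array medians (-0.11), processed signal (-0.44), total gene signal (-0.31), the authors' table (-0.11) and without the 2 arrays (-0.077), and 75 against 25 turned positive with processed (0.16) and total gene signal (0.17). The miR-26b minus miR-26a difference turned positive at 25 mg/kg/day with quantile normalisation (0.0087), processed signal (0.35), total gene signal (0.21) and without the 2 arrays (0.18), and there also at 75 (0.024). The cause was not tested. At 50 and 75 mg/kg/day both members stayed below control, and short of the threshold, under every alternative that gave a value.

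With each array left out in turn, miR-26b ranged from -0.21 to 0.070 at 25 mg/kg/day, from -0.39 to -0.087 at 75 (past the threshold without control replicate 2, control replicate 3 or BaP 25 replicate 1) and from -0.12 to -0.049 in the slope. miR-26a at 25 mg/kg/day ranged from -0.066 to 0.093, negative without control replicate 1 or BaP 25 replicate 1. The difference ranged from -0.31 to 0.18 at 25 mg/kg/day, from -0.58 to 0.024 at 75 and from -0.080 to 0.037 in the slope.

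The count of names past the threshold in the slope, 7, ranged from 1 to 13 over the alternatives and from 4 to 11 with an array left out. At 25, 50 and 75 mg/kg/day the counts of 0, 2 and 4 ranged from 0 to 7, 0 to 4 and 1 to 9 over the alternatives, and for 75 against 25 the count of 2 ranged from 0 to 6. Centring on array medians moved the median change of all names at 50 mg/kg/day to -0.29, total gene signal moved it to 0.13 and the authors' table at 25 mg/kg/day to -0.11. Keeping only probes present on all arrays left no value for miR-26a. No paired analysis was possible because the labels carry no replicate numbers, and those used here follow accession order.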
